A study of Mus musculus with 24 samples.

Results

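Sphingosine-1-phosphate (S1P) is a lipid signal that is made inside cells from sphingosine by the sphingosine kinases Sphk1 and Sphk2. It is removed by the phosphatase Sgpp1, which returns it to sphingosine, and by the lyase Sgpl1, which cleaves it irreversibly, and it acts from outside on G protein-coupled receptors. S1P is high in blood and lymph and low in most tissues, and this gradient guides leukocytes between the compartments. The genes described here are 7 members of this system, of 17301 genes in the deposited table: Sphk1, Sphk2, Sgpl1, Sgpp1, and the receptors S1pr1, S1pr2 and S1pr4. They were chosen by function, and by the fall of Sphk1 in tumour MHCIIhi macrophages, so every tumour against lamina propria value in that population is given as a description without a test. All 7 were among the 12878 genes tested.

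RNA was sequenced from 4 myeloid populations sorted from colon lamina propria (LP) and from colon tumours: F4/80hi CD11b+ MHCIIhi macrophages, F4/80hi CD11b+ MHCIIlow macrophages, F4/80int CD11b+ Ly6Chi MHCII- monocytes and Ly6Ghi F4/80- CD11b+ neutrophils. LP came from C57BL/6J mice, labelled C57/BL and healthy, and tumours from Apc Min/+ mice, labelled APC/Min, whose germline Apc mutation gives intestinal adenomas. Tissue of 13 to 15 mice of both sexes, 3 to 4 months old, was pooled for a library. There were 3 libraries per group and 24 over the 8 groups. The p values measure the spread between these pools, taken for each gene over all 8 groups together. The study's text describes both strains as given dextran sodium sulphate in the drinking water, at different concentrations, 4 weeks before collection, whereas the labels call LP healthy and name no treatment. LP was freed of epithelium with EDTA and digested for longer than tumours, on another Percoll gradient, so tissue, genotype and dissociation cannot be told apart. In sorted bulk RNA, fewer cells that express a gene and less RNA per cell cannot be told apart either.

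Reads on genes, in units of 10 to the power 6, ranged from 12.8 to 41.7 per library (median 26.4). Macrophage marker genes, such as C1qa and Csf1r, summed to 3743 to 7571 RPKM in the macrophage libraries and to at most 830 RPKM in the others, and neutrophil markers to 11726 to 32077 RPKM in the neutrophil libraries, as their labels say. Monocyte markers, such as Ly6c2 and Ccr2, summed to 808 to 1226 RPKM in LP and 2630 to 3193 RPKM in tumour monocytes, against at most 22.1 RPKM in macrophages, but they did not set LP monocytes apart from neutrophils (646 to 1282 RPKM). MHC class II genes were lower in MHCIIlow than in MHCIIhi libraries of both tissues. The 7 fibroblast markers stood apart by tissue: their summed level lay between 7.59 and 62.0 RPKM in the LP libraries and between 0.38 and 1.77 RPKM in the tumour libraries, with Lum at 0 reads in each tumour group. B and plasma cell markers also differed, at 358 to 1300 RPKM in LP and 0.66 to 20.1 RPKM in tumour neutrophils, and at 157 to 575 RPKM in LP and 0.19 to 4.68 RPKM in tumour monocytes. Their part in the tumour differences was not tested. The LP monocyte library of pool IV correlated with the tumour monocyte library of pool I (r = 0.833) about as well as, on average, with the other LP monocyte libraries (mean r = 0.823). Likewise, each tumour MHCIIlow library correlated with a tumour MHCIIhi library (r = 0.907 to 0.914) about as well as with its own group (mean r = 0.893 to 0.904).

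Sphk1 lies on chromosome 11 at chr11:116530925-116536674 (GRCm38, plus strand) and Sgpl1 on chromosome 10 at chr10:61098642-61147703 (minus strand). Their upstream sequences are shown because Sphk1 had the largest tumour difference of the 7 genes and Sgpl1 was lower in tumours in each population. RefSeq (GRCm38.p6) listed upstream sequence for 6 of the 7 genes. Of 5 RefSeq starts of Sphk1, the fourth has its 250 upstream bases inside the gene body but outside annotated exons. The windows of starts 4 and 5 overlap and share the ACGTG match, and those of starts 1 to 3 held no ACGTG. The 250 bases before start 2 held 1 match each to TGANTCA and AGGAAG, and those before start 3 held 1 match to TGANTCA. The Sgpl1 window is the 231 bases before the gene. Capitals mark matches, on either strand, to ACGTG (the core of hypoxia-response elements) and GGGCGG (a GC box).
Sphk1, chr11:116532194-116532443, plus strand: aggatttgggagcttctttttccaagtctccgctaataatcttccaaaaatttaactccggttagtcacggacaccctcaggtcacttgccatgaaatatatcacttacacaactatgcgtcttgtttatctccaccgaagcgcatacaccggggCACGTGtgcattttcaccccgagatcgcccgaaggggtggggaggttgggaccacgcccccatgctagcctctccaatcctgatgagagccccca
Sgpl1, chr10:61147704-61147934, minus strand: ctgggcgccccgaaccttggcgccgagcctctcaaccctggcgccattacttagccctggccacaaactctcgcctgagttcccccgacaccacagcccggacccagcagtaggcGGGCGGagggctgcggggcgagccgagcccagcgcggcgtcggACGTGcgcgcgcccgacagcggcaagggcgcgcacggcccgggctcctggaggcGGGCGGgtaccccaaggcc
The Sphk1 window held ACGTG on both strands at a single palindromic place, and the Sgpl1 window held 1 ACGTG and 2 GGGCGG. Of 32851 mouse promoters of 250 bases, 16.6% held ACGTG and 32.7% held GGGCGG. The letters TGANTCA (the AP-1 motif, in 6.75% of promoters) and AGGAAG (an ETS motif, in 29.5%) were also searched for and had no match in the printed windows.

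Sphk1, the kinase that cytokines and growth factors induce, was nearly lost from tumour macrophages of both subsets while tumour monocytes kept it. In LP MHCIIhi macrophages it stood at 21.5, 19.9 and 23.1 RPKM in pools III, IV and V. In tumour MHCIIhi macrophages it stood at 1.06, 0.70 and 0.02 RPKM in pools I, V and VII, the last from only 2 reads. No tumour library came near an LP library, and the difference of the log2 means was -6.55, the 57th lowest of the 12878 genes in the contrast by which Sphk1 was selected. Without tumour pool VII it was -4.64, and on log2(RPKM + 1) it was -3.88.

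In LP MHCIIlow macrophages, which the choice did not use, Sphk1 stood at 44.8, 29.2 and 30.7 RPKM in pools II, III and IV. In tumour MHCIIlow macrophages it stood at 0.85, 0.38 and 0.55 RPKM in pools I, V and VII, from 73 to 107 reads. The groups did not overlap, and Sphk1 was 61.3-fold lower in tumours (log2 difference -5.94 ± 0.90, SE, adjusted p = 6.3e-05, limma with Benjamini-Hochberg adjustment). It passed under each of 16 alternatives. Fibroblast markers fell in the same libraries, from 19.8 to 62.0 RPKM in LP MHCIIlow down to 0.56 to 1.15 RPKM in tumour MHCIIlow macrophages. Dendritic cell markers went from between 9.29 and 16.9 RPKM to between 3.49 and 5.41 RPKM in these libraries, and from between 51.3 and 73.5 RPKM to between 5.05 and 14.7 RPKM in MHCIIhi macrophages. The part of either list in the Sphk1 difference was not tested.

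Monocytes behaved differently from macrophages. LP monocytes had 9.12, 13.2 and 12.3 RPKM of Sphk1 and tumour monocytes 12.7, 15.2 and 18.01 RPKM, with overlapping groups and a log2 difference of 0.41 (95% interval -1.47 to 2.29, adjusted p = 0.85, limma). In the same monocyte libraries the fibroblast markers went from between 14.3 and 29.2 RPKM in LP to between 0.86 and 1.02 RPKM in tumours. The tumour effect on Sphk1 in MHCIIlow macrophages was lower than that in monocytes by 6.35 ± 1.28 log2 units (SE, adjusted p = 0.0029, limma). In levels, the LP MHCIIlow libraries lay above the LP monocyte libraries, and the tumour MHCIIlow libraries below the tumour monocyte libraries. Tumour MHCIIlow macrophages alone, without the libraries that chose the gene, were 4.76 log2 units below tumour monocytes (adjusted p = 3.6e-04, limma). With both subsets the difference was -5.41, and -4.45 without MHCIIhi pool VII, but these values use the libraries that chose Sphk1. In LP, where the MHCIIhi libraries also entered the choice of the gene, all 6 macrophage libraries lay above the 3 monocyte libraries, but the log2 difference of 1.25 did not pass (adjusted p = 0.25, limma). It passed in 5 of 21 alternatives (adjusted p between 7.4e-05 and 0.045, limma). These were log2(RPKM + 1), log2(RPKM + 0.1), quantile normalization, voom and only the libraries compared. For LP MHCIIlow macrophages alone the difference from LP monocytes was 1.59 and did not pass either (adjusted p = 0.20, limma). The LP MHCIIlow libraries lay above the LP MHCIIhi libraries, with a log2 difference of 0.67 that did not pass (adjusted p = 0.78, limma).

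Neutrophils had little Sphk1 in either tissue. LP neutrophils had 3.35, 3.10 and 4.61 RPKM and tumour neutrophils 1.45, 1.18 and 1.56 RPKM. The groups did not overlap, yet the log2 difference of -1.39 did not pass (adjusted p = 0.26, limma), and it passed on log2(RPKM + 1) (adjusted p = 0.0026) and with only the libraries compared (adjusted p = 0.023). In the main fit each Sphk1 test, also those in monocytes and LP macrophages above, used the spread of all 8 groups. The SD was 3.32 log2 units in tumour MHCIIhi macrophages, with pool VII at 2 reads. It was 0.30 in LP and 0.20 in tumour neutrophils. Tumour neutrophils were lower than tumour monocytes by 3.45 ± 0.90 log2 units (SE, adjusted p = 0.0028, limma). LP neutrophils also lay below LP monocytes without overlap, with a log2 difference of -1.65 that did not pass (adjusted p = 0.13, limma). That difference passed in 4 of 17 alternatives: log2(RPKM + 1), log2(RPKM + 0.1), only the libraries compared, and voom. LP MHCIIlow macrophages were highest, and the libraries of the 2 tumour macrophage groups overlapped at the low end of the order.

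**Figure D1:**
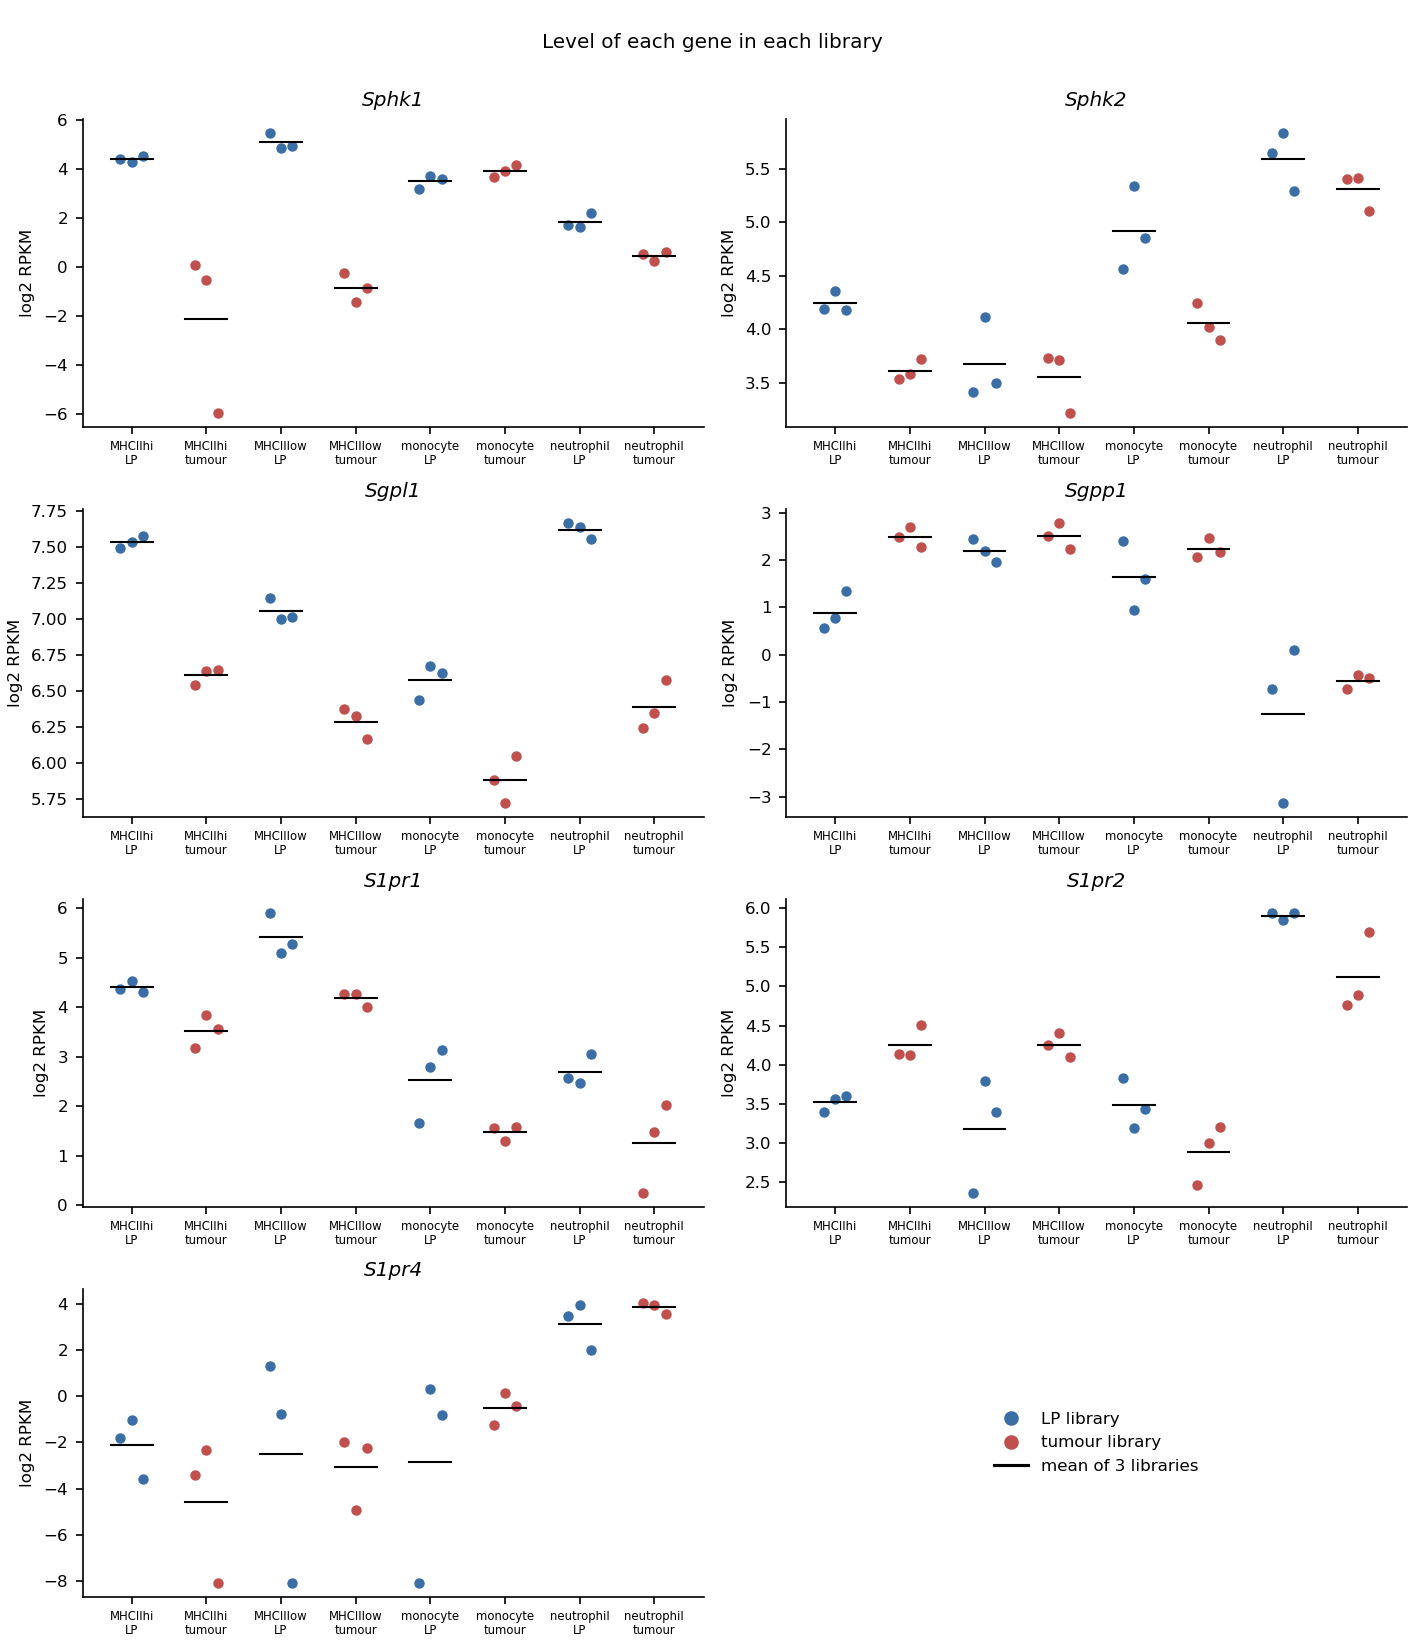
Log2 RPKM (vertical axis) of the 7 genes in each of 24 libraries, with LP libraries in blue, tumour libraries in red and a black line at the mean of 3 libraries. Sphk1 is low in tumour macrophages of both subsets (0.02 to 1.06 RPKM) and high in tumour monocytes (12.7 to 18.01 RPKM).

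Sphk2, the second kinase, which resides partly in the nucleus, followed another order. Its mean was highest in LP neutrophils, at 50.1, 57.0 and 39.1 RPKM, and second in tumour neutrophils, at 42.2, 42.7 and 34.3 RPKM, which overlapped. The macrophages of both tissues had between 9.33 and 20.5 RPKM. In monocytes Sphk2 fell from 23.7, 40.4 and 28.9 RPKM in LP to 18.9, 16.2 and 14.96 RPKM in tumours without overlap (log2 difference -0.86 ± 0.21, SE, adjusted p = 0.010, limma). That call was lost with only the libraries compared (adjusted p = 0.073) and without the LP library of pool IV (adjusted p = 0.062). The MHCIIlow macrophages overlapped between tissues. In MHCIIhi macrophages the tumour libraries (11.6 to 13.2 RPKM) lay below the LP libraries (18.2 to 20.5 RPKM).

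Within LP, Sphk2 was higher in neutrophils than in monocytes by 0.67 log2 units (adjusted p = 0.0096, limma), although 1 monocyte library exceeded the lowest neutrophil library. That call was lost under quantile normalization (adjusted p = 0.38), with only the libraries compared, and without LP monocyte pool III or LP neutrophil pool IV. Within tumours the neutrophil excess was 1.25 log2 units (adjusted p = 3.2e-05, limma), without overlap. Sphk2 was lower in LP macrophages than in LP monocytes by 0.96 log2 units (adjusted p = 3.8e-04, limma). In tumours the same difference was only -0.47 (adjusted p = 0.043, limma) and passed in only 11 of 21 alternatives. It was lost with the pool number as a fixed block (adjusted p = 0.17), without a filter (0.054), under quantile normalization (0.12), with MHCIIlow macrophages alone (0.070) and without any of 6 single libraries (up to 0.18). Exons of Sphk2 share up to 12.96% of their bases with genes on the other strand (Dbp and Rpl18). The protocol keeps no strand, so part of these reads could come from them. Dbp had group means between -3.22 and -0.01 log2 RPKM, and Rpl18 between 2.13 and 3.23 log2 RPKM.

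Sphk1 and Sphk2 can be compared on RPKM, which is scaled by length. Sphk1 made up 49.3% to 56.0% of the summed kinase level in LP MHCIIhi macrophages and 62.8% to 80.8% in LP MHCIIlow macrophages. It made up 0.12% to 8.34% in tumour MHCIIhi and 2.79% to 5.99% in tumour MHCIIlow macrophages. In monocytes the share was 24.7% to 29.8% in LP and 40.2% to 54.6% in tumours, with Sphk2 lower in tumour monocytes. Neutrophils expressed mostly Sphk2, with a Sphk1 share of at most 10.5%. The summed kinase level was 39.7 to 55.4 RPKM in LP macrophages and 9.87 to 14.1 RPKM in tumour macrophages.

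**Figure D2:**
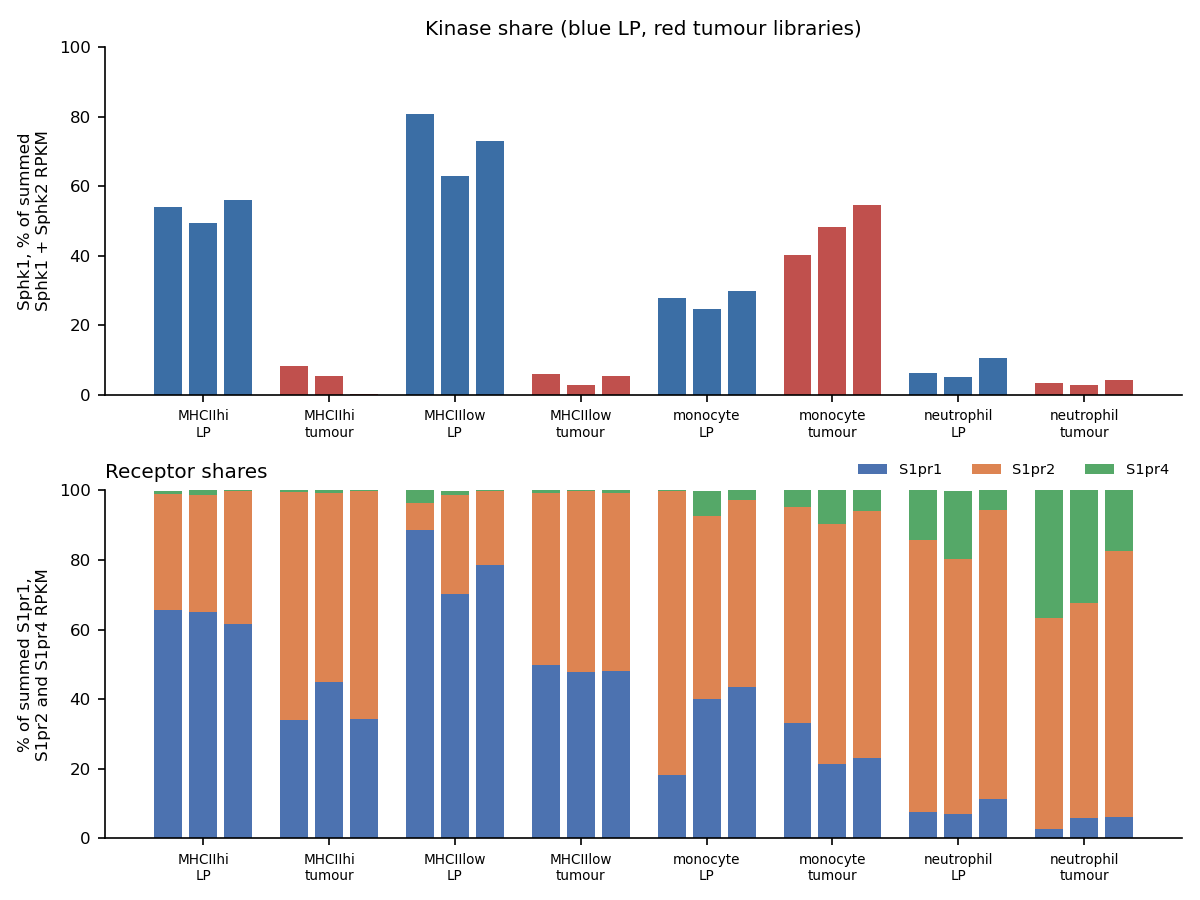
The upper plot gives Sphk1 as a percent of the summed Sphk1 and Sphk2 RPKM in each library, and the lower plot gives S1pr1, S1pr2 and S1pr4 as percents of their summed RPKM. Bars are single libraries, 3 per group. The Sphk1 share is at most 8.34% in the 6 tumour macrophage libraries and at least 49.3% in the 6 LP macrophage libraries.

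Sgpl1, the S1P lyase of the endoplasmic reticulum, was the most abundant of the 7 genes and was lower in tumours in each population. LP neutrophils had 203, 199 and 187 RPKM and tumour neutrophils 75.6, 81.5 and 95.5 RPKM, without overlap. This was the steepest tested fall of Sgpl1, of 2.34-fold (log2 difference -1.23 ± 0.11, SE, adjusted p = 1.4e-07, limma). The LP and tumour groups of the other populations did not overlap either.

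In MHCIIlow macrophages Sgpl1 went from 142, 128 and 129 RPKM in LP to 82.9, 80.3 and 71.8 RPKM in tumours (log2 difference -0.77 ± 0.11, SE, adjusted p = 2.7e-05, limma). In monocytes it went from 86.5, 102 and 98.7 RPKM to 59.2, 53.0 and 66.1 RPKM (log2 difference -0.69 ± 0.11, SE, adjusted p = 3.6e-04, limma). All 3 falls passed under every one of 16 alternatives. In MHCIIhi macrophages the LP libraries had 180, 185 and 191 RPKM and the tumour libraries 93.1, 99.9 and 100 RPKM.

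The fall in neutrophils exceeded that in monocytes by 0.54 log2 units (adjusted p = 0.032, limma). That difference was lost under quantile normalization (adjusted p = 0.19), with libraries centred on their median (adjusted p = 0.21), with arrayWeights (adjusted p = 0.064), with only the libraries compared (adjusted p = 0.090) and without any of 7 single libraries (adjusted p up to 0.085). The fall in MHCIIlow macrophages differed from that in monocytes by -0.07 log2 units (95% interval -0.39 to 0.25, adjusted p = 0.85, limma).

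Between populations, Sgpl1 was higher in macrophages than in monocytes by 0.72 log2 units in LP (adjusted p = 7.8e-06, limma) and by 0.56 log2 units in tumours (adjusted p = 7.1e-05, limma). LP MHCIIlow macrophages were 0.48 log2 units below LP MHCIIhi macrophages (adjusted p = 0.0085, limma). Neutrophils exceeded monocytes by 1.04 log2 units in LP and by 0.50 log2 units in tumours (adjusted p = 1.2e-07 and 5.4e-04, limma). Both neutrophil calls were lost under quantile normalization (adjusted p = 0.17 and 0.16), where the tumour difference became -0.19.

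Sgpp1, the S1P phosphatase, was expressed at a few RPKM in macrophages and monocytes and close to absent in neutrophils. LP neutrophils had 0.61, 0.11 and 1.07 RPKM, from 5 to 76 reads, and tumour neutrophils 0.61, 0.74 and 0.71 RPKM, from 18 to 25 reads. LP monocytes had 5.26, 1.91 and 3.04 RPKM and tumour monocytes 4.22, 5.52 and 4.51 RPKM. Neutrophils were lower than monocytes of the same tissue without overlap, by 2.90 log2 units in LP (adjusted p = 1.4e-04, limma) and by 2.79 log2 units in tumours (adjusted p = 1.7e-04, limma), and both calls held under all 17 alternatives. Without LP neutrophil pool IV, the library at 5 reads, the LP difference was -1.96, and without pool V it was -3.57.

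No tested tumour difference of Sgpp1 passed. In MHCIIhi macrophages the tumour libraries had 5.64, 6.48 and 4.86 RPKM and the LP libraries 1.48, 1.71 and 2.54 RPKM, the opposite direction to Sgpl1 in the same libraries (log2 difference 1.60 for Sgpp1 and -0.93 for Sgpl1). LP MHCIIlow macrophages, at 5.44, 4.55 and 3.88 RPKM, lay above LP MHCIIhi macrophages, with a log2 difference of 1.30 that did not pass (adjusted p = 0.16, limma) but did on log2(RPKM + 1) (adjusted p = 0.012), with arrayWeights (adjusted p = 0.041) and with voom on recovered reads (adjusted p = 0.0085). Over the 24 libraries, which share tissue and population, Sphk2 and Sgpp1 had the strongest correlation of any pair of the 7 genes (r = -0.86).

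**Figure D3:**
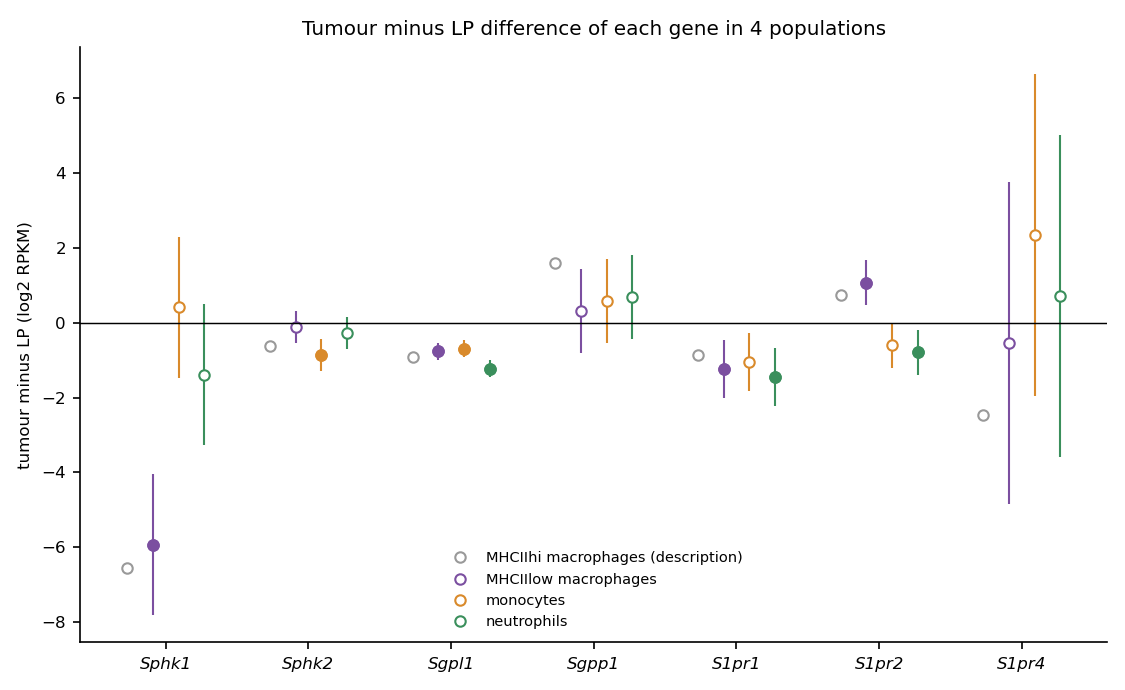
Tumour minus LP difference in log2 RPKM (vertical axis) for each gene in 4 populations, with 95% intervals from limma. Filled points have an adjusted p under 0.05, and grey points (MHCIIhi macrophages) carry no test or interval. Sgpl1 lies below 0 in each population, and S1pr2 is above 0 in macrophages and below 0 in monocytes and neutrophils.

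S1pr1, the Gi-coupled receptor that draws leukocytes toward S1P, was a macrophage receptor in these data and was lower in tumours. LP MHCIIlow macrophages had 59.9, 34.0 and 38.7 RPKM and tumour MHCIIlow macrophages 19.2, 19.4 and 16.1 RPKM, without overlap. The fall was 2.36-fold (log2 difference -1.24 ± 0.37, SE, adjusted p = 0.018, limma). It was lost without LP pool II, the highest library (adjusted p = 0.097), and without tumour pool VII (adjusted p = 0.064). The 10 markers of endothelial cells, which are known for S1pr1, summed to between 1.20 and 11.03 RPKM in LP MHCIIlow and between 10.7 and 17.8 RPKM in tumour MHCIIlow macrophages. Pecam1, which leukocytes also express, stood at 0.48 to 7.89 RPKM in LP and 9.96 to 16.5 RPKM in tumour MHCIIlow macrophages, while Cldn5 reached 2.11 RPKM in LP and had 0 reads in tumour MHCIIlow macrophages, and the part of these cells in the S1pr1 difference was not tested.

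In neutrophils S1pr1 fell from 5.93, 5.55 and 8.37 RPKM in LP to 1.19, 2.80 and 4.05 RPKM in tumours (log2 difference -1.45 ± 0.37, SE, adjusted p = 0.0051, limma), a call lost with only the libraries compared (adjusted p = 0.11) and with voom (adjusted p = 0.075). Endothelial markers moved with it, from between 17.96 and 23.9 RPKM in LP to between 2.35 and 3.86 RPKM in tumour neutrophils, with 5 of the 10 at 0 reads. The summed T and NK cell markers went from between 13.2 and 19.1 RPKM in LP to between 2.49 and 5.596 RPKM in tumour neutrophils. Most of the LP sum was Il7r, at 10.5 to 14.4 RPKM in LP and 1.002 to 1.495 RPKM in tumour neutrophils. Cd3d was higher in tumour neutrophils (0.794 to 1.31 RPKM, against 0.197 to 0.569 RPKM in LP), and the other markers of that list overlapped. B and plasma cell markers fell in the same libraries, as given above. The part of endothelial, T, NK, B and plasma cells in the S1pr1 difference was not tested. In monocytes the LP libraries (3.18, 6.93 and 8.80 RPKM) lay above the tumour libraries (2.94, 2.48 and 2.999 RPKM), with a log2 difference of -1.05 that did not pass (adjusted p = 0.082, limma). It passed without LP pool III (adjusted p = 0.016) and with arrayWeights (adjusted p = 0.013), and endothelial markers summed to 12.98 to 21.5 RPKM in LP and 5.42 to 13.1 RPKM in tumour monocytes. T and NK cell markers summed to 68.5 to 82.4 RPKM in LP and 28.7 to 34.3 RPKM in tumour monocytes. Nearly all of this was Il7r, at 67.3 to 80.3 RPKM in LP and 27.5 to 32.4 RPKM in tumour monocytes. Cd3g was higher in tumour monocytes (0.13 to 0.34 RPKM, against at most 0.06 RPKM in LP), and the other markers of the list overlapped. MHCIIhi macrophages had 20.8, 22.99 and 19.7 RPKM of S1pr1 in LP and 9.09, 14.4 and 11.8 RPKM in tumours. T and NK cell markers summed there to 140 to 148 RPKM in LP and 13.4 to 23.2 RPKM in tumours. Most of that sum was Il7r, at 139 to 145 RPKM in LP and 12.2 to 20.2 RPKM in tumours. Cd2 was also lower in tumours, Cd3e and Klrb1c were higher, and the rest overlapped, each at 2.12 RPKM or less.

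Macrophages exceeded monocytes by 5.20-fold in LP (log2 difference 2.38, adjusted p = 1.0e-05, limma) and by 5.18-fold in tumours (log2 difference 2.37, adjusted p = 5.4e-06, limma). Each macrophage library of either tissue was above each monocyte and neutrophil library. The MHCIIlow libraries were above the MHCIIhi libraries of the same tissue, without overlap, but neither difference passed (adjusted p = 0.10 in LP and 0.57 in tumours, limma). The LP call was made on log2(RPKM + 1), under quantile normalization, with arrayWeights and with voom (adjusted p between 0.0024 and 0.029). Neutrophils and monocytes overlapped in each tissue.

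S1pr2, a receptor that couples also to G12/13 and restrains migration, was higher in tumour MHCIIlow macrophages and lower in tumour neutrophils than in LP. The difference between these effects was not tested, and each call was lost under some alternatives. LP MHCIIlow macrophages had 5.14, 13.8 and 10.5 RPKM and tumour MHCIIlow macrophages 19.0, 21.2 and 17.1 RPKM, without overlap. The rise was 2.10-fold (log2 difference 1.07 ± 0.29, SE, adjusted p = 0.0099, limma) and was lost with only the libraries compared (adjusted p = 0.11) and without LP pool II (adjusted p = 0.079). MHCIIhi macrophages had 10.5, 11.8 and 12.2 RPKM in LP and 17.6, 17.4 and 22.7 RPKM in tumours.

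LP neutrophils had the highest S1pr2 of all groups, at 61.4, 57.5 and 61.2 RPKM, and tumour neutrophils had 27.2, 29.7 and 51.8 RPKM. The fall was 1.73-fold (log2 difference -0.79 ± 0.29, SE, adjusted p = 0.042, limma) and passed in only 6 of 16 alternatives (adjusted p up to 0.16). Monocytes had 14.3, 9.14 and 10.8 RPKM in LP and 5.51, 7.98 and 9.21 RPKM in tumours, which overlapped. The tumour effect in MHCIIlow macrophages exceeded that in monocytes by 1.67 ± 0.41 log2 units (SE, adjusted p = 0.012, limma), and this was lost only with the libraries compared alone (adjusted p = 0.053).

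Neutrophils exceeded monocytes in S1pr2 by 5.35-fold in LP and by 4.69-fold in tumours (adjusted p = 7.4e-07 and 1.7e-06, limma). In tumours S1pr2 was 2.58-fold higher in macrophages than in monocytes (adjusted p = 1.9e-04, limma). In LP these overlapped, with a log2 difference whose 95% interval was -0.66 to 0.39 (adjusted p = 0.74, limma).

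S1pr4, a receptor of haematopoietic cells, was confined in these libraries mainly to neutrophils. LP neutrophils had 11.1, 15.6 and 4.04 RPKM and tumour neutrophils 16.5, 15.6 and 11.8 RPKM, which overlapped. All other libraries were at 2.46 RPKM or less, and the libraries LP MHCIIlow pool IV, LP monocyte pool III and tumour MHCIIhi pool VII had 0 reads, which allows up to 3 reads in each. Log2 differences that include these libraries depend on the prior count of 0.25 reads. So does the SE of each S1pr4 test in the main fit, since the spread is shared over the 8 groups. The SD of log2 RPKM was 4.92 in LP MHCIIlow macrophages, 4.56 in LP monocytes and 3.07 in tumour MHCIIhi macrophages. It was 0.26 in tumour neutrophils and 0.69 in tumour monocytes.

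In LP the neutrophils exceeded the monocytes by 6.0 ± 2.06 log2 units (SE, adjusted p = 0.019, limma), a call lost with only the libraries compared (adjusted p = 0.069), without LP monocyte pool III (log2 difference 3.39, adjusted p = 0.16) and without LP neutrophil pool IV (adjusted p = 0.057). Without LP monocyte pools IV or V the difference was 7.59 or 7.02. In tumours the difference was 4.36 ± 2.06 log2 units (SE, adjusted p = 0.077, limma), with monocytes at 0.42, 1.10 and 0.75 RPKM and no overlap. It passed on log2(RPKM + 1) (adjusted p = 6.0e-07), log2(RPKM + 0.1), with only the libraries compared and with voom (adjusted p = 0.0020). The tumour macrophages, from 0 to 21 reads, were below the tumour monocytes, with a log2 difference of -3.31 that did not pass (adjusted p = 0.15, limma). No tumour difference of S1pr4 passed, and each pair of LP and tumour groups overlapped.

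The receptor shares followed from these levels. S1pr1 made up 61.7% to 88.7% of the summed S1pr1, S1pr2 and S1pr4 RPKM in LP macrophages and 34.0% to 49.9% in tumour macrophages. S1pr2 made up 7.62% to 38.1% and 49.4% to 65.8%, respectively. In neutrophils S1pr2 made up 60.7% to 83.1%, and S1pr4 5.49% to 19.8% in LP and 17.4% to 36.7% in tumours. The lengths used for RPKM came from the table itself and were shorter than current exon lengths for S1pr2 (2815 against 7971 bases) and Sgpp1 (3324 against 5649 bases), so levels between genes depend on the annotation. With the current lengths the S1pr1 share was 81.7% to 93.3% in LP and 58.9% to 73.3% in tumour macrophages, and the S1pr2 share 2.84% to 17.9% and 25.8% to 40.6%. In LP neutrophils the S1pr2 share was then 49.1% to 63.6% and the S1pr4 share 11.9% to 37.6%. In tumour neutrophils the S1pr2 share was 35.2% to 53.6% and the S1pr4 share 34.6% to 60.4%. S1pr4 there exceeded S1pr2 in pools I and II but not in pool V. The S1pr1 share was lower in tumour than in LP macrophages with either length, without a test. The order of S1pr1 and S1pr2 changed in the tumour macrophage libraries except MHCIIlow pool I, where S1pr1 was the higher with either length. S1pr3 was not in this sum; with it, it took 31.9% to 41.5% in tumour monocytes and at most 2.61% in tumour macrophages.

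Counted over comparisons, 4 of the 7 genes were called between tumour and LP in MHCIIlow macrophages, 3 lower and 1 higher, against 23.3% of all genes tested. In monocytes 2 were called, both lower (all genes 9.29%), and in neutrophils 3, all lower (all genes 32.2%). The median log2 difference of the 7 genes was -0.53, -0.60 and -0.79 in these comparisons, and that of all genes 0.06, 0.00 and -0.12. Without LP MHCIIlow pool II, 2 genes were called in MHCIIlow macrophages. Among the MHCIIhi macrophages, 4 genes were lower and 2 higher in tumours without overlap. Of all genes tested, 43% did not overlap there in one or the other direction, and since this contrast chose Sphk1 nothing is read from the count.

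Between MHCIIlow and MHCIIhi macrophages 1 gene was called in LP (all genes 7.7%) and 0 in tumours (all genes 1.13%, limma; 1 gene had an unadjusted p under 0.05, and voom also called 0). Between macrophages and monocytes 3 were called in LP (29.5%) and 5 in tumours (38.3%). The 5 include Sphk1, whose test there uses the MHCIIhi libraries that chose it, and Sphk2, which did not pass with MHCIIlow macrophages alone. Between neutrophils and monocytes 5 were called in LP (54.5%) and 5 in tumours (58.1%). The tumour effect differed between MHCIIlow macrophages and monocytes for 2 genes (9.28%) and between neutrophils and monocytes for 1 gene (9.11%). Centring the libraries on their median shifted every neutrophil against monocyte difference by 0.29 in LP and 0.45 log2 units in tumours, and the tumour difference of neutrophils by 0.24 log2 units, so small neutrophil differences depend on the scaling.

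Further genes of S1P metabolism, transport and reception were followed in a list of 16, of which 9 were tested. The shares of all genes called were 23.3% in MHCIIlow macrophages, 9.29% in monocytes and 32.2% in neutrophils. In MHCIIlow macrophages 1 was higher and 3 were lower in tumours (median log2 difference of the list -0.46), in monocytes 2 were higher and 1 lower (median 0.21), and in neutrophils 3 were higher and 1 lower (median 0.61). S1pr3, a further S1P receptor, stood at 1.01, 0.98 and 1.31 RPKM in LP MHCIIlow macrophages and at 38, 0 and 2 reads in tumour MHCIIlow macrophages, at most 0.32 RPKM (adjusted p = 0.014, limma). In tumour monocytes S1pr3 stood at 6.29, 5.41 and 8.83 RPKM, and in LP monocytes at 0.92, 1.66 and 0.47 RPKM, without overlap, but the log2 difference of 2.91 did not pass (adjusted p = 0.30, limma). That test shared its spread over the 8 groups. The SD of S1pr3 was 4.44 in tumour MHCIIhi and 3.68 in tumour MHCIIlow macrophages. In tumour and LP monocytes it was 0.36 and 0.92. Tumour macrophages of both subsets were below tumour monocytes in S1pr3 (adjusted p = 1.1e-04, limma). Abcc1, a transporter that can export S1P, fell from 27.5, 28.9 and 27.0 RPKM in LP to 12.3, 14.2 and 8.29 RPKM in tumour MHCIIlow macrophages (log2 difference -1.30, adjusted p = 8.4e-04, limma), and tumour monocytes had 24.4, 23.3 and 24.4 RPKM.

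Plpp3, an ecto-phosphatase of S1P and other lipid phosphates, was lower in tumours in MHCIIlow macrophages, monocytes and neutrophils (adjusted p = 0.047, 0.022 and 0.0086, limma). Its LP levels were only 0.72 to 4.57 RPKM and its tumour levels 0 to 71 reads. Plpp3 is also expressed by fibroblasts, whose markers fell in the same libraries, and their part was not tested. Asah1, the lysosomal acid ceramidase that yields sphingosine, was higher in tumour neutrophils (73.4, 78.6 and 71.2 RPKM against 32.3, 27.6 and 21.8 RPKM in LP; log2 difference 1.47, adjusted p = 2.9e-07, limma) and in tumour monocytes (log2 difference 0.59, adjusted p = 0.0095, limma), and also in tumour MHCIIlow macrophages (log2 difference 0.50, adjusted p = 0.012, limma).

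Of 14 ceramide synthesis genes tested, 1 was higher and 2 were lower in tumour MHCIIlow macrophages, 2 were higher in tumour monocytes, and 8 were higher and 2 lower in tumour neutrophils, against 23.3%, 9.29% and 32.2% of all genes called. The median log2 differences of the list were 0.13, 0.01 and 0.47. Of all 12878 genes, 1690 were higher and 2452 lower in tumour neutrophils. In the same neutrophil libraries epithelial markers summed to 16.2 to 74.3 RPKM in LP and 168 to 342 RPKM in tumours, and dendritic cell markers to 92.2 to 187 RPKM in LP and 2.67 to 20.4 RPKM in tumours, and their part in these differences was not tested. Cers6, a ceramide synthase for C16 chains, rose by 2.39 log2 units in tumour neutrophils (adjusted p = 1.6e-08, limma) and by 0.89 in tumour monocytes (adjusted p = 0.0026, limma). Among the 8 genes higher in tumour neutrophils, Cers3 and Degs2 had few reads. Cers3 had 0, 2 and 0 reads in LP and 4, 32 and 24 in tumour neutrophils. Degs2 had 0, 17 and 19 reads in LP and 83, 33 and 43 in tumour neutrophils. Kdsr, an early enzyme of the pathway, fell by 0.92 log2 units in MHCIIlow macrophages (adjusted p = 0.017, limma).

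Of 19 genes of sphingomyelin and glycosphingolipid turnover, 5 were higher and 4 lower in tumour MHCIIlow macrophages (median 0.21; 23.3% of all genes called). Sgms2, a sphingomyelin synthase, went from 52.3, 13.6 and 22.0 RPKM in LP to 1.69, 2.01 and 2.32 RPKM in tumour MHCIIlow macrophages (log2 difference -3.65, adjusted p = 1.1e-07, limma). Like Sphk1 it was kept in tumour monocytes, at 134, 86.8 and 84.4 RPKM, and its tumour effect was 3.98 log2 units lower in MHCIIlow macrophages than in monocytes (adjusted p = 1.8e-05, limma). Sgms1, the other main synthase, fell by 2.05 log2 units in MHCIIlow macrophages (adjusted p = 3.1e-04, limma) and rose by 1.33 in monocytes (adjusted p = 0.024, limma), and the difference of these effects was -3.38 (adjusted p = 2.5e-04, limma). Ugcg, which makes glucosylceramide, fell by 2.26 log2 units in tumour MHCIIlow macrophages (adjusted p = 5.4e-08, limma). In neutrophils Sgms1 rose by 1.91 log2 units (adjusted p = 5.0e-04, limma), and 5 genes of the list were higher and 2 lower (median 0.17), a share near the 32.2% of all genes. In monocytes 3 were higher and 1 was lower (median 0.15; 9.29% of all genes called).

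Of 18 genes of receptor coupling and trafficking, 6 were higher and 4 lower in tumour MHCIIlow macrophages (median 0.45; all genes 23.3%), and 4 were higher and 2 lower in monocytes (median 0.01; all genes 9.29%). In neutrophils 5 were higher and 1 lower (median 0.15), a share near the 32.2% of all genes. Cd69, which binds S1pr1 and removes it from the cell surface, rose from 4.72, 10.1 and 5.34 RPKM in LP to 24.7, 26.7 and 30.5 RPKM in tumour MHCIIlow macrophages (log2 difference 2.10, adjusted p = 9.1e-05, limma). In monocytes Cd69 was lower in tumours by 1.08 log2 units, with overlapping groups (adjusted p = 0.045, limma), and in MHCIIhi macrophages its mean was 5.04 log2 RPKM in LP and 5.22 in tumours. Arrb2, an arrestin of receptor internalization, and Rgs1, which shortens G protein signalling, rose by 1.74 and 1.63 log2 units in tumour MHCIIlow macrophages (adjusted p = 1.5e-07 and 4.0e-04, limma). Klf2, a transcription factor known to drive S1pr1, was higher in LP macrophages than in LP monocytes by 2.41 log2 units (adjusted p = 2.2e-04, limma). It was also higher in neutrophils than in monocytes, by 2.82 log2 units in LP (adjusted p = 6.7e-05, limma), where S1pr1 overlapped. In neutrophils Rgs2 fell in tumours by 1.63 log2 units (adjusted p = 1.0e-05, limma), and the kinase Grk2 rose by 1.36 (adjusted p = 3.0e-06, limma).

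**Figure D4:**
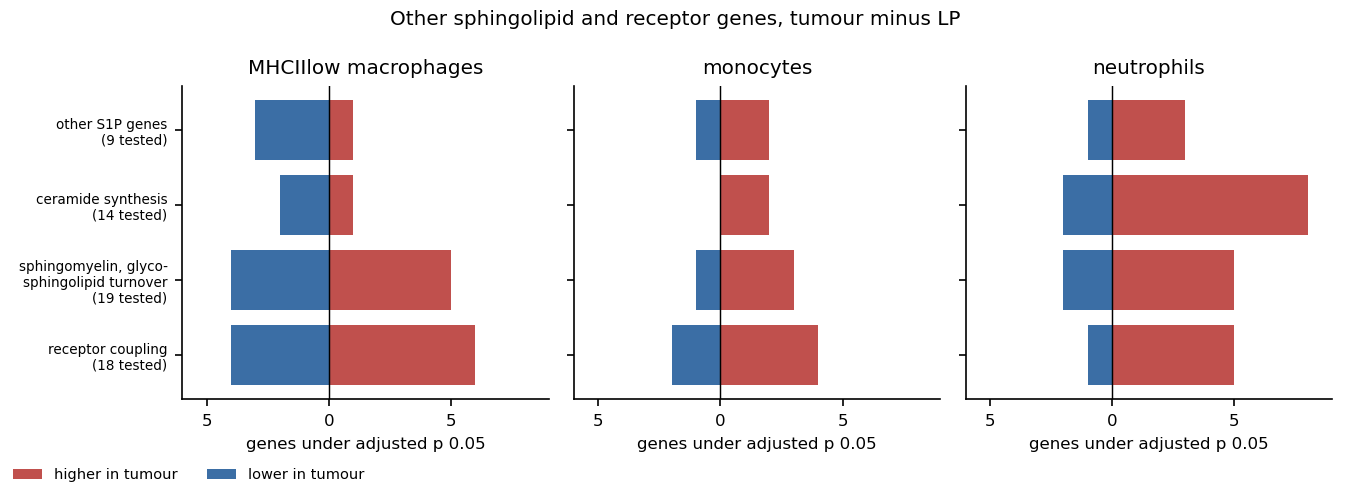
Number of genes with an adjusted p under 0.05 (horizontal axis) that are higher (red, right) or lower (blue, left) in tumours, for 4 gene lists and 3 populations. The longest bar is that of ceramide synthesis in neutrophils, with 8 of 14 genes tested higher in tumours. Of all genes tested, 32.2% were called in neutrophils in either direction.

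The genes whose levels followed the members most closely over the 24 libraries were found by Pearson's r among 5291 genes with a mean of at least 10 RPKM in some group. For Sphk1 they were Flrt3, Pdlim1 and Plec (r = 0.92, 0.91 and 0.91). For Sgpl1 they included Oser1 and Atp6v1c1 (both r = 0.88), for Sphk2 Oasl2, Sipa1l1 and Sp2 (0.94 to 0.95), and for Sgpp1 Chchd3, Galk2 and Slc25a4 (0.92 to 0.93). For S1pr1 they were Nagk, Mfsd11 and Pgpep1 (0.90 to 0.91), for S1pr2 Arl11, Arhgap25 and Smpd5 (0.90 to 0.92), and for S1pr4 Tab2, Rnd1 and Cyb561d1 (0.82 to 0.85). These libraries share tissue, population and pool, so the values describe a shared pattern over 8 groups and carry no test.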

How the data were processed

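The 24 libraries were made by SMARTSeq v2 with modifications and read from both ends (51 bases). The submitters' processing notes name STAR 2.3, featureCounts 1.5, edgeR and GRCm38/mm10, and genes with few reads had been removed. The authors deposited log2 RPKM values. Whole reads were recovered from these values (99.99% of 415224 within 0.001 reads, prior count 0.25 reads, scaled library sizes 0.47 to 1.51 times the reads). They gave depth, a floor of 3 reads and alternatives. All columns were used (0 left out).

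The deposited log2 values of genes that reached a mean of 1 RPKM in any group entered limma (version 3.58.1, R 4.3.3; 8 group means, eBayes with trend), with Benjamini-Hochberg adjustment within each of 11 comparisons and a threshold of 0.05. The study's methods used voom, which was an alternative. The others were pseudocounts of 1 and 0.1, another filter (none, or a mean of 5 RPKM), quantile normalization, median centring, arrayWeights, only the libraries compared, pool blocks and leaving out each library. MHCIIlow macrophages alone against monocytes were added after seeing the data.

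The labels give pools as donors, which pairs libraries of the same tissue. Over 29 such pairs, deviations from the group mean correlated with r from -0.066 to 0.25 (median 0.017), and duplicateCorrelation gave 0.048. The members and lists were chosen with earlier results of these data known. Genes named are the 7 members; from each of 4 further lists, among up to 3 with the largest difference that passed without overlap in a comparison; and the 3 genes most correlated with each member (mean of at least 10 RPKM in a group; predicted genes left out), of which 1 is not reported here. Coordinates are from GENCODE M21 and sequences from RefSeq. The limma test was checked on simulated reads with the same dispersion for all genes and changes set only in genes with many reads. It was not checked for genes with few reads or with a spread that differs between groups. Figures were drawn with matplotlib 3.10.9.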

Additional observations from a re-analysis of the deposited data

Results flagged for a closer look

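A total of 3 tumour effects differed between populations by a test of the difference itself (limma, Benjamini-Hochberg adjustment). The Sphk1 effect in MHCIIlow macrophages minus that in monocytes was -6.35 log2 units (adjusted p = 0.0029; 0.0097 at most over 22 alternatives). The S1pr2 effect in MHCIIlow macrophages minus that in monocytes was 1.67 log2 units (adjusted p = 0.012; 0.053 at most over 22 alternatives). The Sgpl1 effect in neutrophils minus that in monocytes was -0.54 log2 units (adjusted p = 0.032; 0.014 to 0.21 over 22 alternatives, under the threshold in 11). Groups of 3 libraries were not searched for outlying samples.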

How the results depend on the processing

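Under the settings other than leaving out a library, the reported differences of single genes kept direction and side of the threshold in 460 cases of a difference and a setting, lost a call in 22 and gained one in 24. In 4 cases an untested value moved by more than the spread between libraries, and in 1 case the direction turned over: Sgpl1 in tumour neutrophils against monocytes under quantile normalization (-0.19). Of 34 further differences that passed no test and whose groups overlapped, 22 changed sign under at least 1 alternative and 2 passed. With only the libraries compared, 1 gene was called between tumour and LP monocytes and 1 for the tumour effect in MHCIIlow macrophages against monocytes. Between LP MHCIIlow and MHCIIhi macrophages, 3 were called on log2(RPKM + 1), 2 under quantile normalization, 4 with arrayWeights and 3 with voom. Between LP neutrophils and monocytes, 3 were called under quantile normalization. For the tumour effect in neutrophils against monocytes, 2 were called on log2(RPKM + 1) and 0 under quantile normalization, median centring or arrayWeights. The cause was not tested.

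Leaving out 1 library in turn left direction and side of the threshold as they were in 320 cases of a difference and a library, ended the call in 26 and added it in 2. It gave counts of 2 to 4 for tumour against LP MHCIIlow macrophages (2 without LP pool II) and 1 to 3 for monocytes (1 without LP pool IV). It gave 1 to 2 for LP MHCIIlow against MHCIIhi macrophages, 3 to 5 for LP neutrophils against monocytes (3 without LP monocyte pool III or LP neutrophil pool IV), and 0 to 1 for the tumour effect in neutrophils against monocytes. With the fixed replicate block, the paired fit, the Sphk2 difference between tumour macrophages and monocytes was -0.40 and no longer passed (adjusted p = 0.17); it passed in 11 of 21 alternatives in all, and no other call of the 7 genes changed under either block. Alternatives were run for the 7 genes only, not for the further lists. Precision rests on 3 pools per group, and Sphk1 in tumour MHCIIhi pool VII, S1pr4 outside neutrophils and Sgpp1 in neutrophils rest on few reads.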
